A study of Mus musculus with 9 samples.

Results

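The genes of 10 plasma proteins made by the liver were followed across 9 mouse livers: albumin (Alb), transthyretin (Ttr) and the apolipoproteins Apoa1, Apoa2, Apoa4, Apoa5, Apob, Apoc3, Apoe and Apoh. They were chosen by name as a list of 10 among the 54532 genes of the deposited table, and all 10 passed the filter on low values, which left 9699 genes for testing. RNA was taken from livers of male C57BL/6 mice aged 5 to 7 weeks, with 3 libraries in each of 3 groups. The NC group was the normal control. The APAP group had been fasted overnight and given 500 mg/kg acetaminophen (APAP) into the peritoneum, and was studied after 6 h. The AMSC group received the same dose of APAP, followed at once by 200000 adipose-derived mesenchymal stromal cells (AMSCs) through the tail vein, and was also studied after 6 h. The AMSCs were grown from inguinal fat of C57BL/6 mice, so their reads cannot be told apart from those of the host by strain. The study's methods state fasting for all animals ahead of APAP, which is ambiguous for the NC group, as it received none. If the NC mice were fed, fasting and APAP cannot be told apart in comparisons with that group. The hour at which the NC livers were taken is not given in the sources used here, so it is not known whether the groups were matched for time of day.

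Albumin is the most abundant protein of plasma, where it holds water in the vessels and carries fatty acids, bilirubin and drugs, and hepatocytes are its source. Transthyretin carries thyroid hormone and, bound to the retinol-binding protein, vitamin A. Apolipoproteins are the protein part of lipoproteins: Apob is the scaffold of VLDL and LDL, Apoa1 and Apoa2 are the main proteins of HDL, and Apoe is a ligand for lipoprotein receptors. Apoc3 slows the clearance of triglyceride-rich particles, Apoa5 speeds it, Apoa4 rides on chylomicrons and HDL and is made by intestine and liver, and Apoh (beta-2-glycoprotein I) binds phospholipids.

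The values are FPKM, the reads on a gene per kilobase of its length after scaling of the libraries to each other, so that levels can be compared between genes. The libraries held 13418921 to 16210930 reads on genes. The member with the fewest reads was Apoa4, with 460 to 5309 reads per library, and Alb had 1032774 to 1444479. Counting error is thus largest for Apoa4 in the NC group, and for the other genes the number of livers limits the precision. In a bulk tissue, fewer cells of a type and less RNA per cell cannot be told apart. Hepatocyte markers other than the 10 genes summed to 10877 to 12295 FPKM in the NC group, 10235 to 10951 in the APAP group and 14767 to 16653 in the AMSC group, so the tissue label matched its defining genes. Summed levels of genes of some other cells also differed between the groups. Erythroid genes summed to 306 to 1406 FPKM in the APAP group, against 135 to 254 in the NC and 183 to 312 in the AMSC group. Kupffer cell and macrophage markers summed to 149 to 376 FPKM in the APAP group, against 99.9 to 191 in the NC and 89.7 to 148 in the AMSC group, and neutrophil markers to 7.52 to 34.8 FPKM, against 0.330 to 1.91 and 4.24 to 5.98. Cholangiocyte markers summed to 57.4 to 97.3 FPKM in the APAP group, above the 18.7 to 39.6 of the NC and the 27.3 to 50.5 of the AMSC group. Most of this sum came from Spp1 and Sox9. The means of Spp1 were 22.3, 49.7 and 30.0 FPKM in the NC, APAP and AMSC groups, and those of Sox9 1.46, 26.7 and 3.06. Krt19, Krt7 and Epcam were at 3.29 FPKM or lower in every library and overlapped between APAP and NC, as did Spp1. The Kupffer cell sums overlapped between APAP and NC and the erythroid sums between APAP and AMSC. None of the listed markers was at 0 in every library, and the part of these cells in the results below was not tested. NC replicate 3 carries another date in its label than the other 8 libraries, and what that date marks is not given in the sources used here. Its title also carries the number NC-1, while its description gives the replicate number 3 that is used here, so the pairing of this library by number rests on the description.

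Of the 10 genes, 4 form a cluster on chromosome 9 (GRCm38) that spans 43340 bases: Apoa1 (chr9:46228580-46230466, plus strand), Apoc3 (chr9:46232933-46235636, minus strand), Apoa4 (chr9:46240696-46243459, plus strand) and Apoa5 (chr9:46268633-46271919, plus strand). Alb lies at chr5:90460897-90476602, Apob at chr12:7977648-8016835, Apoe at chr7:19696109-19699188, Apoa2 at chr1:171225054-171226379 and Apoh at chr11:108343354-108414396. The upstream sequences of Alb, Apoa1 and Apoa4 are shown because these were the 3 genes that differed from the NC group in at least 1 comparison. They come from RefSeq (GRCm38.p6), all on the plus strand, and end before both the RefSeq start site and the start of the gene in the deposited table. Capitals mark a match to a searched motif.
Alb, chr5:90460620-90460869: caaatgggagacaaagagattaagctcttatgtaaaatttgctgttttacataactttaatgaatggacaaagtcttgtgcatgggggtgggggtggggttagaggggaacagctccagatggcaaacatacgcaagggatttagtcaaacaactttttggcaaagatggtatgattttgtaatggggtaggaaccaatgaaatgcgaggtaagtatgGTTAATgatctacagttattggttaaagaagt
Apoa1, chr9:46228380-46228579: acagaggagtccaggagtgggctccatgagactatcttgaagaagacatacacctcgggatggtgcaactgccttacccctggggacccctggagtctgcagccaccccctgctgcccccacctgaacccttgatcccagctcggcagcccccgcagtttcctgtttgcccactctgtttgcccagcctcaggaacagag
Apoa4, chr9:46240594-46240695: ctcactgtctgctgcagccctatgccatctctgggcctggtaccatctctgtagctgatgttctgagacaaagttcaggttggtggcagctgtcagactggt
The 250 bases before the RefSeq start site were searched on both strands for 5 motifs in the 8 members with an entry, which are all but Ttr and Apoc3. For Apoh, that start site lies 51943 bases from the gene start in the deposited table, so its window is inside the gene as deposited. The last 148 bases of the Apoa4 window, 50 of the Apoa1 window and 29 of the Apob window are also inside the deposited genes. The motif GTTAAT was found in Alb only, and 6.43% of 32851 promoters of this length hold it. The TATA box motif TATAAA was found in Apoa2, Apoa5 and Apob, beginning 212, 56 and 60 bases before the RefSeq start site. It is held by 12.4% of promoters anywhere in the window. The HNF4 type motif CAAAGTCCA (0.384% of promoters), the C/EBP palindrome TTGCGCAA (0.164%) and the CRE TGACGTCA (1.55%) were in none of the 8 windows. These are matches of letters and do not show binding.

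Together the 10 genes took 12.5% ± 0.35 of all reads on genes in the NC group, 15.1% ± 1.17 in the APAP and 13.2% ± 0.511 in the AMSC livers (SD, n = 3 each). Alb alone took 7.53% ± 0.212, 9.81% ± 0.451 and 7.60% ± 0.401 and had the highest FPKM of all genes in each of the 9 libraries. In the NC group, the mean levels fell from Alb (28741 FPKM) through Apoa2 (9446), Apoe (8916), Apoa1 (5686), Ttr (3558), Apoc3 (1574), Apoh (1153), Apoa5 (449) and Apob (331) to Apoa4 (15.6). Among these neighbours, the values of Apoa2 and Apoe overlapped, and so did those of Apoa5 and Apob.

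The order of the mean levels was the same in the APAP group. In the AMSC group only Apoe and Apoa2 changed places, and their values overlapped in every group. In the APAP group, Apoa2 (10982 FPKM), Apoe (10695) and Apoa1 (9410) followed Alb (44835), and each overlapped with the next, as did Apoc3 with Apoh and Apoa5 with Apob. In the AMSC group Apoe (11480) came before Apoa2 (10720) and Apoa1 (10044), with the same overlaps. Apoa1, which ranked 7 to 10 among all genes in the NC libraries, ranked 4 to 5 in the AMSC libraries. Apoa4 moved furthest, from rank 2096 to 2278 in the NC group to rank 257 to 643 in the APAP group and 679 to 1148 in the AMSC group.

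**Figure D1:**
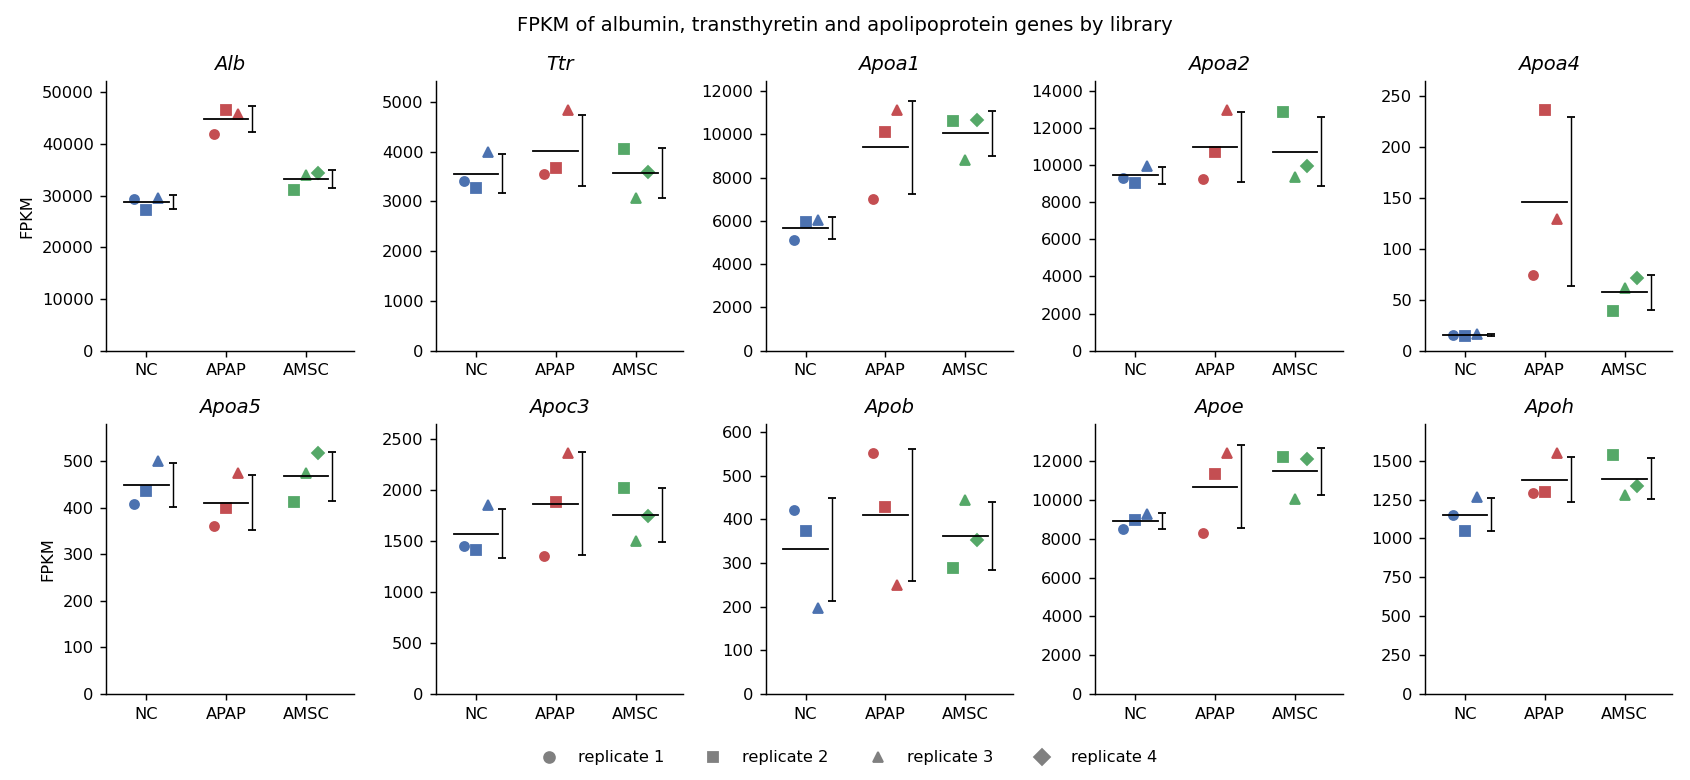
FPKM of the 10 genes in each library of the NC, APAP and AMSC groups on linear axes from 0. Symbols give the replicate number, lines the mean and bars the SD (n = 3). Apoa4 lies at 14.7 to 16.6 FPKM in the NC group and at 73.8 to 236 in the APAP group, and Alb is highest in the 3 APAP libraries.

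The comparison of the APAP with the NC group asks how the overdose changed the liver's messages. Alb, Apoa1 and Apoa4 were higher 6 h after APAP and the other 7 genes did not pass the test. This makes 3 of 10 genes that passed, all higher, where 25.9% of all genes tested passed in either direction and 12.8% passed as higher. A gene passed when its adjusted p by limma on log2(FPKM + 1) was 0.05 or lower, with Benjamini-Hochberg adjustment over all 9699 genes. The groups did not overlap for 4 of the 10 genes, against 43.2% of all genes, so neither share stood far from the background. The median log2 fold change of the 10 genes was 0.25, and that of all genes tested was 0.00.

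Alb stood at 29338, 27230 and 29654 FPKM in the NC replicates 1, 2 and 3 and at 42000, 46612 and 45891 FPKM in the APAP replicates 1, 2 and 3. The 3 APAP livers were all above the 3 NC livers by a wide margin, with a CV of 4.59% within the NC and 5.53% within the APAP group. Alb was 0.64 higher on the log2 scale (SE 0.13, 95% interval 0.34 to 0.94, adjusted p = 0.011 by limma), which is 1.56-fold. Without APAP replicate 2 the log2 fold change was 0.61 and the adjusted p was 0.060. With all 24849 genes above 0 in the fit, the fold change of Alb was the same, but its SE from limma was 0.86 (adjusted p = 0.68). The fold change of Apoa1 also stayed the same there, with an SE of 0.34 (adjusted p = 0.31 by limma), against 0.20 in the main fit.

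Apoa4 stood at 15.6, 14.7 and 16.6 FPKM in the NC group and at 73.8, 236 and 129 FPKM in the APAP group. The NC livers lay close together, while the APAP livers were spread widely (CV 56.4%), and the lowest of them was far above the highest NC liver. The increase was 2.99 on the log2 scale (SE 0.36, interval 2.15 to 3.84, adjusted p = 0.0015 by limma), on a log2(FPKM + 1) scale that slightly understates the change of a gene at this level. A gene that passed and changed by at least 1 on the log2 scale is called a DEG here: of the 10 genes only Apoa4 was one, against 7.9% of all genes. Apoa4 overlaps Gm47528 on the other strand, which reached at most 6.52 FPKM, and the strand of the reads is not given in the sources used here.

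Apoa1 stood at 5104, 5931 and 6022 FPKM in the NC group and at 6995, 10103 and 11133 FPKM in the APAP group. All APAP livers were above all NC livers, but APAP replicate 1 lay much nearer to the NC group than the other two. The log2 fold change was 0.70 (SE 0.20, interval 0.25 to 1.16, adjusted p = 0.035 by limma). The call was lost without any one of NC replicates 1, 2 and 3 or APAP replicates 2 and 3, with adjusted p between 0.065 and 0.125, while the fold change stayed between 0.57 and 0.75. Without NC replicate 3, the library with the other date, Alb gave 0.66 (adjusted p = 0.026), Apoa4 3.03 (adjusted p = 0.0073) and Apoa1 0.75 (adjusted p = 0.065).

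The remaining genes gave log2 fold changes between -0.13 and 0.31 with intervals that include 0. Apoh, at 1148, 1048 and 1263 FPKM in the NC and 1290, 1297 and 1549 FPKM in the APAP group, did not overlap between the groups, but its log2 fold change of 0.26 had an adjusted p of 0.22 by limma. Apoe stood at 8506, 8954 and 9287 FPKM in the NC group and at 8303, 11361 and 12421 FPKM in the APAP group. APAP replicate 1 was thus the lowest of the 6 livers for Apoe, and the other 2 APAP livers were the highest. The log2 fold change of Apoe was 0.24 (interval -0.17 to 0.65, adjusted p = 0.35 by limma). Apoa5, the neighbour of Apoa4, was the only member with a lower mean after APAP, at 409, 437 and 501 FPKM against 360, 399 and 476 FPKM. Its log2 fold change was -0.13 (interval -0.48 to 0.22, adjusted p = 0.57 by limma). In the chromosome 9 cluster, 2 of the 4 genes thus passed, and Apoc3, at 1454, 1413 and 1853 FPKM in the NC and 1352, 1888 and 2363 FPKM in the APAP group, gave 0.22 (adjusted p = 0.50 by limma).

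**Figure D2:**
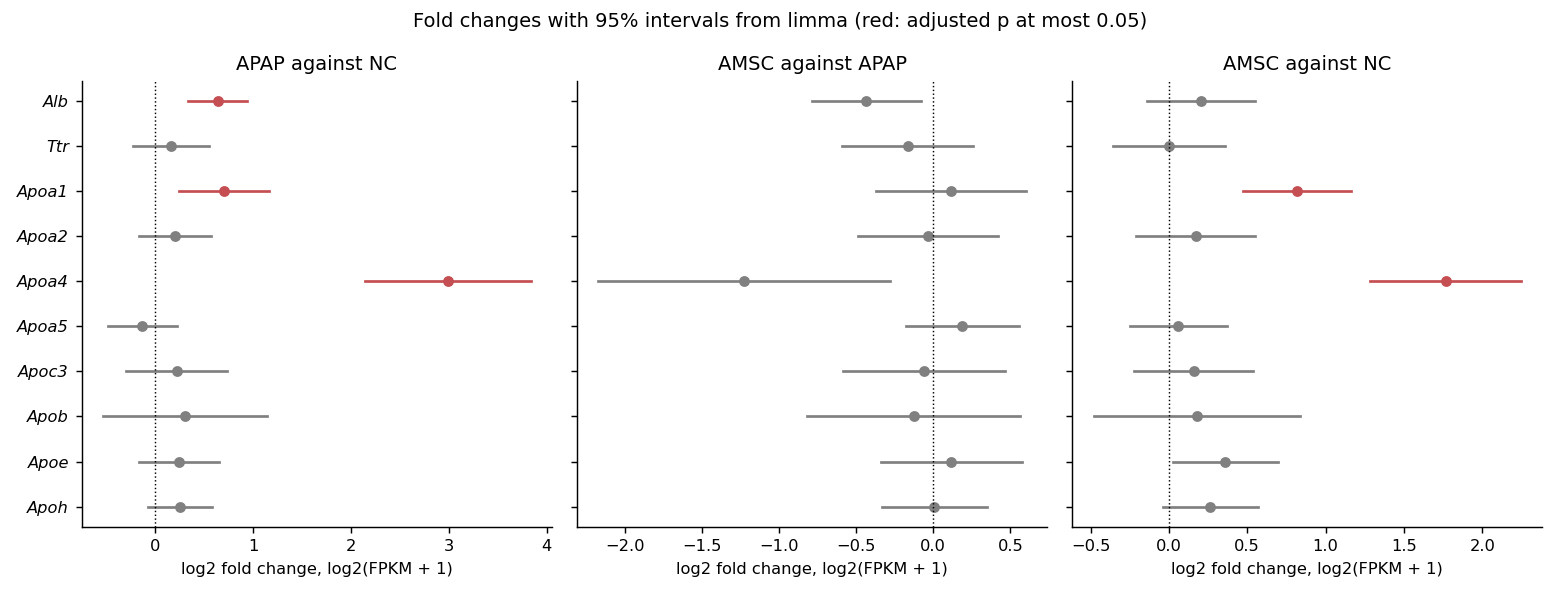
Log2 fold change of each gene on the log2(FPKM + 1) scale with its 95% interval from limma, in 3 comparisons of 3 against 3 libraries with an x axis of its own each. Red marks genes that passed (adjusted p 0.05 or lower): Alb, Apoa1 and Apoa4 in APAP against NC, Apoa1 and Apoa4 in AMSC against NC, and none in AMSC against APAP.

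The comparison of the AMSC with the APAP group asks what the cells added to the overdose. None of the 10 genes passed the test in limma, by which 3.78% of all genes passed and 1.64% passed as higher. None of the 10 passed with voom on the recovered reads either. At an unadjusted p under 0.05 there were 2 of the 10, Alb and Apoa4, where 20.9% of all genes were (by limma), so this share is that of the background. They were also the 2 genes whose groups did not overlap (27.0% of all genes did not). None was a DEG, against 1.96% of all genes. The median log2 fold change of the 10 genes was -0.05, beside 0.01 for all genes tested.

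Alb stood at 31190, 33926 and 34423 FPKM in AMSC replicates 2, 3 and 4, each below every APAP liver and above every NC liver. The log2 fold change against the APAP group was -0.43 (SE 0.15, interval -0.79 to -0.08, adjusted p = 0.16 by limma). The share of Alb among all reads on genes does not use the deposited scaling. It takes the total reads of the library as its base, so it also depends on the other abundant genes. This share was 7.16%, 7.70% and 7.94% in the AMSC group, against 9.31%, 9.92% and 10.2% in the APAP group. The groups did not overlap on this measure either, with p = 0.1 in the exact two-sided permutation test, which is the smallest that 3 against 3 libraries allow. The share in the NC group was 7.39% to 7.77%, which overlaps that of the AMSC group (exact permutation p = 0.9). By FPKM these groups did not overlap, so their order depends on the base chosen.

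Apoa4 stood at 38.6, 61.8 and 71.6 FPKM in the AMSC group, where even the highest liver was just below the lowest APAP liver at 73.8 FPKM. The log2 fold change was -1.22 (SE 0.41, interval -2.17 to -0.28, adjusted p = 0.15 by limma). Without APAP replicate 1, which had the lowest Apoa4 of its group, it was -1.63 with an adjusted p of 0.048. Apoa1 showed no such difference, at 10628, 8824 and 10679 FPKM in the AMSC group. Its log2 fold change of 0.12 had an interval of -0.37 to 0.60, so that changes of either sign within these bounds were not excluded. The other 7 genes gave log2 fold changes between -0.17 and 0.19 with intervals that include 0.

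The comparison of the AMSC with the NC group shares its control libraries with the first comparison and its AMSC libraries with the second. Apoa1 and Apoa4 were higher in the AMSC group, 2 of 10 genes, where 26.0% of all genes passed in either direction and 14.1% passed as higher. The log2 fold change of Apoa1 was 0.82 (SE 0.15, interval 0.47 to 1.16, adjusted p = 0.0059 by limma), and it was 0.86 (adjusted p = 0.014) without NC replicate 3. That of Apoa4 was 1.77 (SE 0.21, interval 1.29 to 2.25, adjusted p = 0.00081 by limma), and it was 1.81 (adjusted p = 0.0030) without NC replicate 3. Apoa4 was again the only DEG, against 6.01% of all genes.

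The groups did not overlap for 5 of the 10 genes, Alb, Apoa1, Apoa4, Apoe and Apoh, against 43.5% of all genes. Apoe stood at 12245, 10062 and 12132 FPKM in the AMSC group, all above the NC livers. Its log2 fold change of 0.36 (interval 0.02 to 0.70) did not pass after adjustment (adjusted p = 0.11 by limma). Alb gave 0.21 (interval -0.14 to 0.55, adjusted p = 0.35) and Apoh 0.26 (interval -0.04 to 0.57, adjusted p = 0.18), both by limma. Ttr stood at 3414, 3265 and 3996 FPKM in the NC and at 4059, 3059 and 3596 FPKM in the AMSC group, with a log2 fold change of 0.00 (interval -0.36 to 0.36). The median log2 fold change of the 10 genes was 0.19 beside 0.02 for all genes tested.

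Ratios between 2 of the genes in the same library do not depend on the scaling of that library. They were chosen after the values had been seen and are given as a description. Apoa1 over Apoe was 0.637 ± 0.0327 in the NC group, 0.876 ± 0.0293 in the APAP and 0.875 ± 0.00642 in the AMSC livers (SD, n = 3 each). The NC livers, at 0.600 to 0.662, lay below all 6 others, at 0.842 to 0.896, and the 2 APAP-treated groups overlapped. Apoa1 over Apoa2, the 2 main proteins of HDL, was 0.602 ± 0.0534, 0.852 ± 0.0954 and 0.948 ± 0.122, again with all NC livers below the others. Apoa4 reached 0.276% ± 0.0295 of the level of its neighbour Apoa1 in the NC group, 1.52% ± 0.712 in the APAP group and 0.578% ± 0.187 in the AMSC group, with no overlap between any of the groups. Apoa1 over Alb was 19.8% ± 2.23 in the NC group, 20.9% ± 3.87 in the APAP group and 30.4% ± 4.07 in the AMSC group, where the AMSC livers were above all others.

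**Figure D3:**
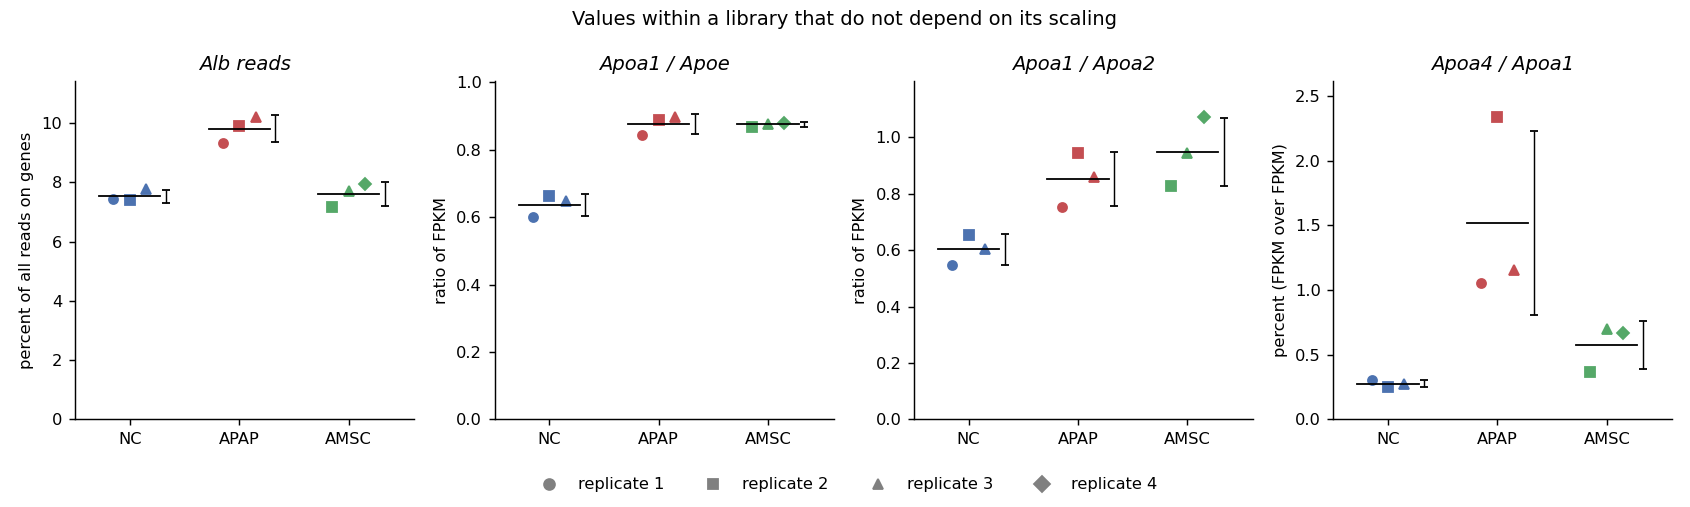
Share of Alb in all reads on genes (percent) and 3 ratios of FPKM between genes of the same library, with symbols for replicates, lines for the mean and bars for the SD (n = 3). The Alb share is highest in the 3 APAP libraries, and Apoa1 over Apoe is lower in the 3 NC libraries than in all others.

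The deposited scaling sets the median gene equal between libraries, and the sums of FPKM then differ: 366767 to 401861 in the NC, 458808 to 495400 in the APAP and 441409 to 468643 in the AMSC group. With the sums set equal instead, as in TPM, the median of all genes moved to -0.26 in APAP against NC and to -0.16 in AMSC against NC on the log2 scale. Relative to the median gene, Alb was then 0.59 and Apoa4 2.95 higher after APAP, against 0.65 for Alb under the deposited scaling and 2.996 for Apoa4. Read against 0, Alb kept its call in APAP against NC at 0.33 (adjusted p = 0.040 by limma), Apoa4 kept its call at 2.69 (adjusted p = 0.0012), and Apoa1 lost it at 0.39 (adjusted p = 0.11). Apoa5 passed as lower under equal sums, at -0.44 (adjusted p = 0.039 by limma). The signs of Ttr, Apoa2, Apob, Apoc3, Apoe and Apoh in that comparison turned negative under equal sums, which shifts all genes alike, and none of the 6 passed under either scaling. Relative to the median gene, these 6 stayed positive, at 0.11, 0.15, 0.25, 0.17, 0.19 and 0.20 in that order. Quantile normalization moved Apoa1 to 0.24 in APAP against NC (adjusted p = 0.37 by limma), and Apoa5 passed as lower there, at -0.44 (adjusted p = 0.046).

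**Figure D4:**
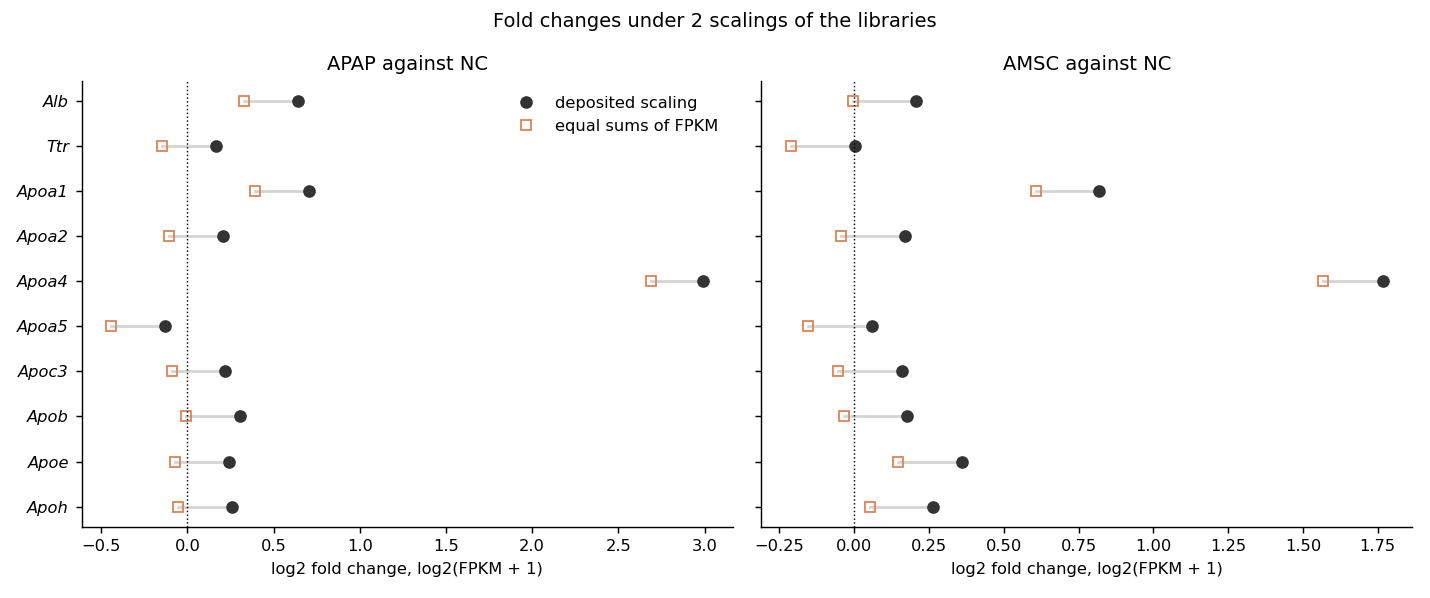
Log2 fold changes of the 10 genes against the NC group under the deposited scaling (filled circles) and with equal sums of FPKM per library (open squares), each panel with its own x axis. All points move left with equal sums. Alb, Apoa1 and Apoa4 stay above 0 after APAP, and Apoa1 and Apoa4 stay well above it in the AMSC group.

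Apob, the longest of the 10 transcripts, varied most within the NC group. It stood at 422, 373 and 198 FPKM in the NC group, 552, 427 and 250 FPKM in the APAP group and 288, 444 and 353 FPKM in AMSC replicates 2, 3 and 4. NC replicate 3, APAP replicate 3 and AMSC replicate 2 held the lowest value of each group, at 0.497, 0.510 and 0.723 times the mean of the others of their group. The gene length given for Apob is 13934 bases, against a median of 3747 for the genes tested.

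The same 3 libraries had the lowest length slope of their group, which is the change in a library's log2 values, relative to the mean of all libraries, for each doubling of gene length. The slope was -0.04, -0.09 and -0.05 in these 3 libraries and between -0.01 and 0.06 in the other 6. Of the 10 genes, 5 (Ttr, Apoa2, Apoc3, Apoe and Apoh) were at the highest level of all 3 groups in these same libraries, and their lengths were 537 to 2138 bases. Apoa2, the shortest, stood at 9308, 9052 and 9980 FPKM in the NC, 9276, 10696 and 12974 FPKM in the APAP and 12849, 9338 and 9972 FPKM in the AMSC group. The part of the length slope in the spread of these genes was not tested. With these 3 libraries left out, Alb was 0.65 higher in APAP against NC (adjusted p = 0.058 by limma) and Apoa1 0.61 (adjusted p = 0.14), both past no threshold with 2 against 2 libraries. With the slope removed from every library, Alb, Apoa1 and Apoa4 kept their calls in that comparison. The 3 comparisons of Apob gave log2 fold changes of 0.31, -0.13 and 0.18. The first had an interval of -0.53 to 1.14, so that changes within these bounds were not excluded in the unpaired fit. With the replicate number as a block, Apob in APAP against NC had the same 0.31 with an SE of 0.10 (adjusted p = 0.080 by limma). Apob was higher in the APAP library of each same-numbered pair, but the pairing was drawn from these same data. The block also matches NC replicate 3 with APAP replicate 3, which had the lowest length slope and the lowest Apob of their groups. The part of the length slope in the smaller SE was not tested.

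**Figure D5:**
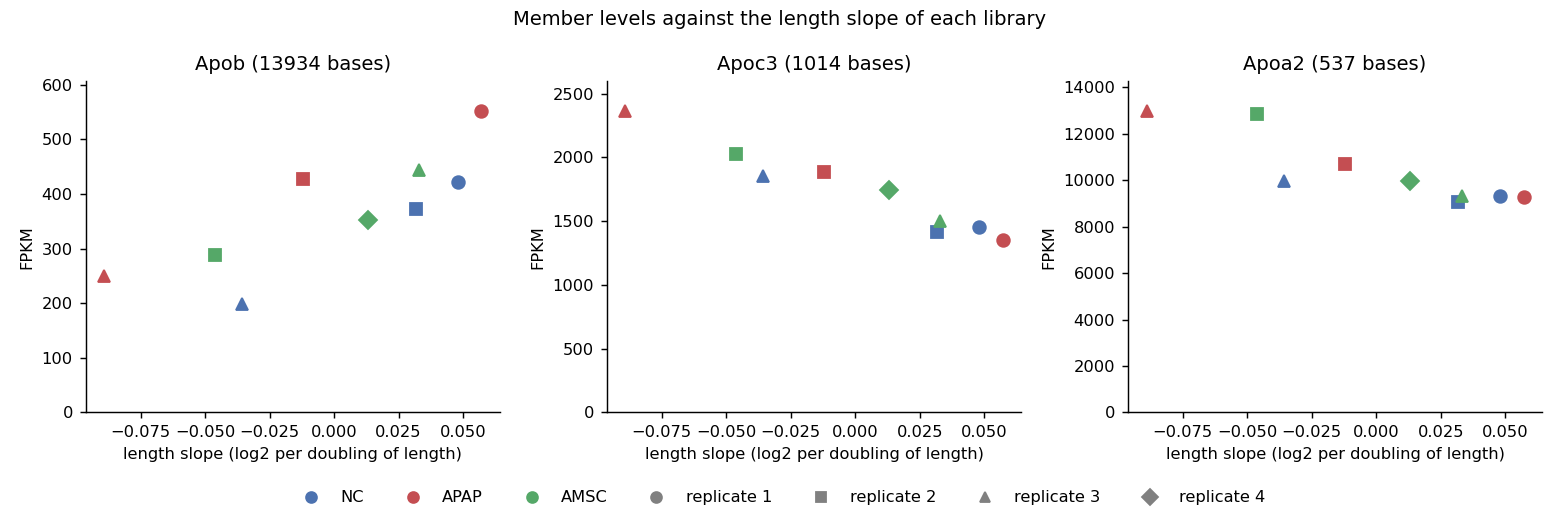
FPKM of Apob, Apoc3 and Apoa2 (linear axes from 0) against the length slope of each library (log2 per doubling of gene length), with a color for each group and a symbol for each replicate. The 3 libraries with the lowest slopes of their groups have the lowest Apob and the highest Apoc3 and Apoa2 of those groups.

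Of the other apolipoproteins, 9 of 14 listed genes were tested. After APAP, 3 of them passed, Clu (clusterin, or apolipoprotein J) higher and the 2 Apol genes Apol7a and Apol9a lower, while 0 of 9 passed in AMSC against APAP with limma, with 3 at an unadjusted p under 0.05, and 4 of 9 passed in AMSC against NC. Of all genes, 25.9%, 3.78% and 26.0% passed in these comparisons, and 20.9% had an unadjusted p under 0.05 in the second. Clu was 0.58 higher on the log2 scale after APAP (SE 0.13, adjusted p = 0.017 by limma) and 0.41 higher in AMSC against NC. Apol7a had a log2 fold change of -0.94 in APAP against NC and of -1.75 in AMSC against NC. Apol9a gave -0.87 and -1.22 in these comparisons, and Apol9b passed only in the second, at -1.04. The Apol9 genes are near copies of each other, so the split of reads between them is uncertain. The median of the 9 genes was -0.11 in APAP against NC. With the replicate number as a block, 5 of the 9 passed there.

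Of the genes for assembly, remodelling and uptake of lipoproteins, 5 of 32 tested passed in APAP against NC (4 higher, 1 lower), 2 in AMSC against APAP (both lower) and 8 in AMSC against NC (2 higher, 6 lower). These are 15.6%, 6.25% and 25% of the list, beside 25.9%, 3.78% and 26.0% of all genes. With the replicate number as a block, 8 passed in APAP against NC. Angptl4, an inhibitor of lipoprotein lipase, stood at 11.9 ± 1.24 FPKM in the NC, 143 ± 57.3 in the APAP and 87.8 ± 15.4 in the AMSC livers (SD, n = 3 each), with log2 fold changes against NC of 3.41 and 2.77. Angptl8, a regulator of the same lipase, went the other way, at 193 ± 67.4, 70.9 ± 24.9 and 30.4 ± 4.68 FPKM, with log2 fold changes of -1.45 and -2.59. Scarb1, the HDL receptor, was 0.62 higher after APAP (adjusted p = 0.0069 by limma). The medians of the 32 genes were 0.08, -0.21 and -0.09 in the 3 comparisons.

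Apobec1, the deaminase that edits the Apob message, stood at 3.20 ± 0.127, 8.63 ± 3.31 and 3.06 ± 0.355 FPKM in the NC, APAP and AMSC groups (SD, n = 3 each), with log2 fold changes of 1.14 after APAP (adjusted p = 0.012 by limma) and -1.19 in AMSC against APAP (adjusted p = 0.043). Mttp, which loads lipid on Apob, gave 0.17, -0.36 and -0.19 in the 3 comparisons and passed in none.

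Of the other plasma transport proteins, 17 of 25 tested passed in APAP against NC (14 higher, 3 lower; 25.9% of all genes passed) with a median of 0.45, but this count fell to 3 with equal sums of FPKM, to 3 without NC replicate 1, to 4 without NC replicate 2 and to 5 without APAP replicate 2. Of the genes that passed, Serpina6 and Serpina7, the carriers of corticosterone and thyroxine, and Igfals, which stabilises IGF complexes in plasma, were lower, at -1.09, -1.33 and -0.88 on the log2 scale. In AMSC against APAP, 2 of 25 passed, beside 3.78% of all genes. Serpina7 was higher at 1.70 (adjusted p = 0.038 by limma), with means of 0.205 ± 0.141 and 3.28 ± 2.39 FPKM. Afm (afamin), a vitamin E carrier of the albumin gene family, changed by -0.61 on the log2 scale (SE 0.12, adjusted p = 0.040 by limma), with 96.4 ± 3.41 FPKM in the APAP and 63.1 ± 5.16 in the AMSC livers (SD, n = 3 each). Afm was also 0.52 higher in APAP against NC (adjusted p = 0.014 by limma), where the NC group stood at 67.1 ± 2.92 FPKM. In AMSC against NC, 6 of 25 passed (26.0% of all genes), among them Itih3 at 0.94 and Itih4 at 0.80, both acute-phase proteins, and Igfals and Serpina6 at -1.55 and -1.18.

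Of the transcription factors of the liver, 17 of 28 tested passed in APAP against NC (6 higher, 11 lower), 3 in AMSC against APAP and 18 in AMSC against NC (8 higher, 10 lower), with medians of -0.44, 0.18 and -0.29. These are 60.7%, 10.7% and 64.3% of the list, beside 25.9%, 3.78% and 26.0% of all genes. Nr1d1 (REV-ERB alpha), a repressor of the circadian clock, stood at 5.73 ± 0.498, 82.5 ± 23.0 and 70.8 ± 9.23 FPKM in the NC, APAP and AMSC groups, and Dbp, another gene of the clock, at 28.1 ± 2.52, 5.74 ± 0.471 and 9.38 ± 2.68. Their log2 fold changes after APAP were 3.60 and -2.11. Onecut1 (HNF6) was lower after APAP, at -1.79, and Cebpd, an acute-phase factor, was higher, at 1.77 after APAP and 2.43 in AMSC against NC. Hnf4a, a regulator of apolipoprotein genes, had a log2 fold change of 0.51 in APAP against NC (adjusted p = 0.13 by limma) and of 1.06 in AMSC against NC (adjusted p = 0.0074). Hnf4a was picked from the list for its known role at these genes, after its values had been seen, and so was Mttp above.

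In AMSC against APAP, Nr0b2 (SHP), a repressor induced by bile acids, stood at 54.2 ± 8.77 FPKM in the APAP and 15.1 ± 0.904 in the AMSC group, with a log2 fold change of -1.77 (adjusted p = 0.0021 by limma). Prox1 and Rxra passed as higher, at 1.27 and 0.77. In AMSC against NC, Cebpb was 2.17 higher and Srebf1, which drives fatty acid synthesis, had a log2 fold change of -2.30.

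The genes whose log2 values moved most like a member over the 9 libraries were named by the smallest root mean square difference after centring each gene on its mean. Among the 10 genes themselves the closest pair was Apoa2 and Apoh, at 0.0911, and the member nearest to Apoa4 was Apoa1 at 1.02. The measure is not scaled for the size of the changes, so members that varied less than Apoa4 had to be far from it. Apoa4 was nearest to Ppl (0.211) and Rab30 (0.237). Ppl stood at 1.58 to 2.29 FPKM in the NC, 8.08 to 33.5 in the APAP and 4.79 to 10.4 in the AMSC group, with the same highest library, APAP replicate 2, as Apoa4. Apoa1 was nearest to Hnrnpa0 (0.0932) and Ftl1 (0.102), the ferritin light chain. Alb was nearest to Lin54 (0.0726) and Ldhb (0.0810), both at levels of only 0.67 to 1.80 FPKM, where the pseudocount narrows differences. Apoc3 was nearest to Atp5h (0.0516) and Ndufb9 (0.0518), and Apoa2 to Cox6c (0.0560) and Mthfsl (0.0638). Apoe was nearest to Med4 (0.0655) and Fam104a (0.0748), Apoh to Ccdc163 (0.0458) and Btf3 (0.0497), Ttr to Cblc (0.0507) and Iah1 (0.0552), Apoa5 to Stub1 (0.0664) and Il17rc (0.0737), and Apob to Zfp871 (0.119) and Usp9x (0.120). These are measures of likeness over 9 libraries that share depth and scaling, and carry no test.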

How the data were processed

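RNA-seq of 9 mouse livers was analysed, with groups and replicate numbers from the sample labels. The authors deposited FPKM per gene, with gene lengths and coordinates, on GRCm38 (mm10) per the submitters' processing notes; the aligner and the counting program are not given in the sources used here. FPKM times gene length was a whole multiple of 1 read, within 0.1, for 100% of values, so reads were recovered, and the scaling in the FPKM followed size factors by the median of ratios. The study's DESeq2 test was not run. The recovered reads were tested with voom as an alternative.

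Genes whose mean reached 1 FPKM were tested as log2(FPKM + 1) with limma 3.58.1 under R 4.3.3 (functions lmFit and eBayes, trend on), the 2 groups compared in each fit, with Benjamini-Hochberg adjustment. The procedure was tested on simulated data. Single values were compared with the exact two-sided permutation test. The limma p-values set the difference between group means against the spread between these libraries, moderated over all genes tested. The main fits were unpaired, and the sources used here do not say that livers with the same number belong together. The replicate block was an alternative, run because same-numbered APAP and NC libraries deviated together from the group means, with correlations of 0.213, 0.160 and 0.378. This pairing was thus drawn from these same data. NC replicate 3 and APAP replicate 3 also had the lowest length slopes of their groups (-0.04 and -0.09). The part of the slope in their correlation was not tested. The numbers of the AMSC libraries (2, 3 and 4) did not pair.

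Members and lists were chosen with earlier results of these data known. The genes named were all members, up to 4 genes per list and comparison that passed with the largest absolute log2 fold change, and the 2 genes most like each member. Some listed genes under this rule are not reported here, and genes named outside it are marked in the text or belong to no count. The alternatives were other pseudocounts, filters and scalings, voom on recovered reads, a single fit, the replicate block and leaving out each replicate. Removing the length slope and leaving out the library with the lowest slope of each group were added after seeing the data. Figures were drawn with matplotlib 3.10.9.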

Additional observations from a re-analysis of the deposited data

How the results depend on the processing

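The number of livers limits what could be detected: 3 against 3 libraries cannot give an exact permutation p under 0.1. Of the 507 values of single members under alternatives, 429 kept their direction and their side of the threshold, and the cause of the other changes was not tested. Apoa4 kept its call against NC in both comparisons under every alternative. Quantile normalization gave no value for Alb, since the top gene of every library is set equal by construction.

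In APAP against NC, the 3 members that passed became 1 with all genes above 0, 1 with the library of lowest length slope of each group left out, and 1 to 3 without single replicates (1 without APAP replicate 2). With quantile normalization Apoa1 lost its call at 0.24 (adjusted p = 0.37) and Apoa5 gained one at -0.44 (adjusted p = 0.046). The other apolipoproteins that passed (3) became 1 with all genes above 0, 5 with equal sums, 5 with the replicate block, 5 with the length slope removed and 1 to 4 without single replicates. The lipoprotein genes (5) became 3 with all genes above 0, 10 with equal sums, 8 with the replicate block and 3 to 8 without single replicates. The plasma transport proteins (17) became 4 with all genes above 0, 3 with equal sums, 4 with quantile normalization, 10 without the libraries of lowest slope and 3 to 14 without single replicates. The transcription factors (17) became 9 with all genes above 0 and 11 to 19 without single replicates.

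In AMSC against APAP, members that passed and DEGs among them (0 and 0 by limma) became 1 and 1 with the replicate block, as Apoa4 then gave -1.82 (adjusted p = 0.0021), and 0 to 1 without single replicates. The lipoprotein genes (2) became 0 with all genes above 0, 1 at a mean of at least 5 FPKM, 4 with the block, 0 without the libraries of lowest slope and 1 to 3 without single replicates. The plasma transport proteins (2) became 0 with all genes above 0, 1 at a mean of at least 5 FPKM, 1 with equal sums, 1 with the block, 0 without the libraries of lowest slope and 0 to 1 without single replicates. The transcription factors (3) became 1 with all genes above 0, 0 without the libraries of lowest slope and 1 to 3 without single replicates.

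In AMSC against NC, members that passed (2) became 1 with all genes above 0 and 1 with the replicate block, where Apoa1 gave 0.70 (adjusted p = 0.14). The lipoprotein genes (8) became 3 with all genes above 0, 13 with equal sums, 5 with the block and 4 to 9 without single replicates. The plasma transport proteins (6) became 3 and the transcription factors (18) became 10 with all genes above 0. The block rests only on numbers 2 and 3 here and in AMSC against APAP, whose same-numbered libraries correlated at -0.20 and -0.31 and at -0.10 and -0.29. Over all genes, the block moved the passing genes from 2514 to 3106, from 367 to 389 and from 2521 to 846 in the 3 comparisons, and all genes above 0 gave 1924, 53 and 1776. Voom on recovered reads passed 2616, 464 and 2705 genes. DEGs numbered 766, 190 and 583 in limma and 1148, 248 and 915 with a pseudocount of 0.1; voom, which takes logs of counts, gave 1197, 296 and 968. Without the libraries of lowest slope, 1568, 7 and 1729 genes passed.

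The summed FPKM of the 10 genes, 0.49 higher in APAP against NC on the log2 scale, was 0.17 with equal sums and -0.018 with quantile normalization. Since quantile normalization fixes Alb, the largest part of the sum, a change of Alb cannot show under it. In AMSC against APAP (-0.20) the sum was 0.084 with quantile normalization and 0.029 without Alb, and in AMSC against NC (0.29) it was 0.074 with equal sums and 0.065 with quantile normalization.

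Signs of log2 fold changes that did not pass turned as follows. With equal sums, APAP against NC gave -0.11 for Apoa2, -0.0053 for Apob, -0.091 for Apoc3, -0.069 for Apoe, -0.055 for Apoh and -0.14 for Ttr. AMSC against APAP gave 0.064 for Apoa2 and 0.037 for Apoc3, and AMSC against NC gave -0.0056 for Alb, -0.043 for Apoa2, -0.15 for Apoa5, -0.034 for Apob, -0.053 for Apoc3 and -0.21 for Ttr. With quantile normalization, APAP against NC gave -0.075 for Apoa2, -0.053 for Apob, -0.16 for Apoc3, -0.084 for Apoe, -0.049 for Apoh and -0.29 for Ttr, and AMSC against APAP gave 0.045 for Apoa2, 0.0079 for Apob and -0.19 for Apoh. AMSC against NC then gave -0.030 for Apoa2, -0.19 for Apoa5, -0.045 for Apob, -0.26 for Apoc3, -0.24 for Apoh and -0.30 for Ttr. With the replicate block, AMSC against APAP gave -0.13 for Apoa1, 0.13 for Apob, -0.098 for Apoe and -0.015 for Apoh, and AMSC against NC gave -0.082 for Apoa5 and -0.036 for Ttr. With the length slope removed, AMSC against APAP gave 0.0036 for Apoa2 and AMSC against NC gave -0.020 for Ttr. Without the libraries of lowest slope, AMSC against APAP gave 0.018 for Apoc3, and AMSC against NC gave -0.0035 for Apob and -0.0094 for Ttr.

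Without single replicates, Apob ranged from -0.028 to 0.62 in APAP against NC, from -0.45 to 0.12 in AMSC against APAP and from -0.16 to 0.39 in AMSC against NC. In AMSC against APAP, Apoa1 ranged from -0.084 to 0.25, Apoa2 from -0.17 to 0.092, Apoc3 from -0.28 to 0.13, Apoe from -0.055 to 0.24 and Apoh from -0.069 to 0.093. In AMSC against NC, Ttr ranged from -0.096 to 0.11 and Apoa5 from -0.017 to 0.15.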
